A study of Mus musculus with 39 samples.

Results

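The wild type livers of a mouse study of fatty liver disease were compared between 3 and 8 months of age. The members were chosen by their labels, as every array labelled wild type, which gave 20 of the 39 arrays of the series. The study knocked out 1 of 2 enzymes of methionine metabolism, GNMT (glycine N-methyltransferase) or MAT1A (methionine adenosyltransferase 1A), and each knockout line had its own wild types at each age. All mice carried the background written as C57B6SJL, no treatment was given, and total RNA from frozen liver was hybridized to the Affymetrix Mouse Genome 430 2.0 array. The 4 groups used here are therefore the wild types of the GNMT cohort at 3 months and at 8 months and the wild types of the MAT1A cohort at 3 months and at 8 months, with 5 arrays each. They carried no deleted allele, and the sources used here do not give their sex, their litter or their feeding. No label says that the arrays of a group came from separate animals, so that the p-values below measure the spread between arrays.

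The liver of a mouse at 3 months is that of a young adult and at 8 months that of a mature one. Its hepatocytes burn fatty acids in mitochondria and peroxisomes under the control of the nuclear receptor PPAR alpha, store what they do not burn in lipid droplets, and keep glucose in blood within limits by making and breaking down glycogen. They also secrete most proteins of blood plasma, among them complement, clotting factors and the acute phase proteins, whose levels climb many-fold when inflammatory cytokines reach the liver. In rodents many hepatocyte genes differ between the sexes, largely through the pulses of growth hormone.

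Values are given as the deposited RMA expression values, which are on a log2 scale, so that a difference of 1 is a doubling, and probe sets of 1 gene were averaged. A change is always the mean at 8 months minus the mean at 3 months within 1 cohort, with its standard error, and a gene was called changed where the Benjamini-Hochberg adjusted p of the limma fit over all 18194 genes was under 0.05. The cohorts share no array and appear to have been normalized apart, since the median probe set of an array was at 4.15 to 4.33 in the GNMT cohort and at 4.91 to 4.99 in the MAT1A cohort, so that levels were compared only within a cohort.

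Replicate arrays were alike, with correlations across genes of 0.986 to 0.996 within the 4 groups. The liver was recognisable on every array by the summed level of 12 hepatocyte markers, which lay between 87030 and 90750 in the GNMT cohort and between 104700 and 113900 in the MAT1A cohort on the linear scale. Xist, the RNA that coats the inactive X chromosome of females, lay between 3.08 and 3.66 on all 20 arrays, while Eif2s3y, a gene of the Y chromosome, lay between 5.63 and 6.73. Xist was thus below and Eif2s3y above the median probe set on every array, as in male liver. Neither targeted gene was lost in any of these livers. Gnmt stood at 13.52 ± 0.04 and 13.50 ± 0.07 in the GNMT cohort (SD, n = 5), and Mat1a at 12.68 ± 0.06 and 12.87 ± 0.20 in the MAT1A cohort. Control RNAs that are added in a fixed amount differed between the ages of the GNMT cohort. The mean of 27 probe sets for the poly-A spikes, which are added to the RNA before labelling, was 0.893 higher at 8 months, and that of 18 probe sets for the hybridization spikes, which are added before hybridization, was -0.377 (exact two-sided permutation test, p = 0.00794 for each, the smallest p that 5 against 5 arrays allow, and adjusted p = 0.0212 over 8 tests). In the MAT1A cohort the same differences were -0.0885 (exact p = 0.230, adjusted p = 0.263) and -0.149 (exact p = 0.0397, adjusted p = 0.0794). Of genes that liver hardly makes, 12 of 21 markers of exocrine pancreas and 4 of 20 of skeletal muscle were called lower there, where 21.4% of all genes were, and 0 of both lists in the MAT1A cohort, where 1.74% of all genes were. The difference between the 3' and 5' probe sets of Actb, a measure of how intact the RNA was, went from 1.11 to 0.848 in the GNMT cohort (adjusted p = 0.0212). The same measure for Gapdh changed by 0.0458 there (exact p = 0.214, adjusted p = 0.263). The mean of the 3' probe set for 18S ribosomal RNA went from 10.91 at 3 months to 8.74 at 8 months in that cohort. Those of its 5' and middle probe sets went from 11.06 to 6.80 and from 9.41 to 7.18. Arrays of the 3' set lay between 10.63 and 11.39 and then between 7.55 and 11.68, so that the ages overlapped. In the MAT1A cohort the means went from 7.97 to 8.06, from 7.20 to 7.19 and from 7.78 to 7.77. The part of these controls in the changes of single genes was not tested. The genes that moved the same way in both cohorts are therefore described first, and genes or lists called in 1 cohort alone are given as values of that cohort.

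In the GNMT cohort 6784 genes (37.3% of those tested) were called, 2887 higher (15.9%) and 3897 lower (21.4%) at 8 months. The split leaned the other way once arrays had been centred on their medians, with 4271 higher and 1719 lower. In the MAT1A cohort 514 genes (2.83%) were called, 198 higher (1.09%) and 316 lower (1.74%). Higher in both cohorts were 117 genes, which is 0.643% of all genes, 4.05% of the genes that rose in the GNMT cohort and 59.1% of those that rose in the MAT1A cohort. Lower in both were 67 genes, which is 0.368% of all genes, 1.72% of those that fell in the GNMT cohort and 21.2% of those that fell in the MAT1A cohort. The 59.1% for rises stands against 15.9% of all genes called higher in the GNMT cohort. For falls the 21.2% is near the 21.4% of all genes called lower there. Of the 184 genes shared by both cohorts, 158 lay above the median gene in both, 98 higher and 60 lower. The 5 arrays of 8 months lay all above the 5 of 3 months in both cohorts for 105 genes (0.577%) and all below them for 64 genes (0.352%). Both changes reached at least 1 on the log2 scale for 16 of the rising and 8 of the falling genes. Opposite calls were made for 80 genes, of which 74 were higher in the GNMT and lower in the MAT1A cohort and 6 the reverse. The number of genes called in both was 349 without replicate 1 of the MAT1A cohort at 3 months and between 75 and 159 without any other array of that cohort, 70 with all 39 arrays in 1 fit, and 35 by a test with each gene's own variance. Of 67 genes described below as called in both, 24 kept both calls without each array in turn. Of these, 15 also kept them under the other settings in which they were tested (other arrays in the fit, the replicate block, the brightest probe set, a filter on dim genes, other normalizations and another prior for the variance, but not a test with each gene's own variance), and they are called stable here. The median change over all genes was -0.07 in the GNMT and -0.01 in the MAT1A cohort. The counts given below for a list of genes stand against these shares of all genes, which are far higher in the GNMT cohort.

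**Figure D1:**
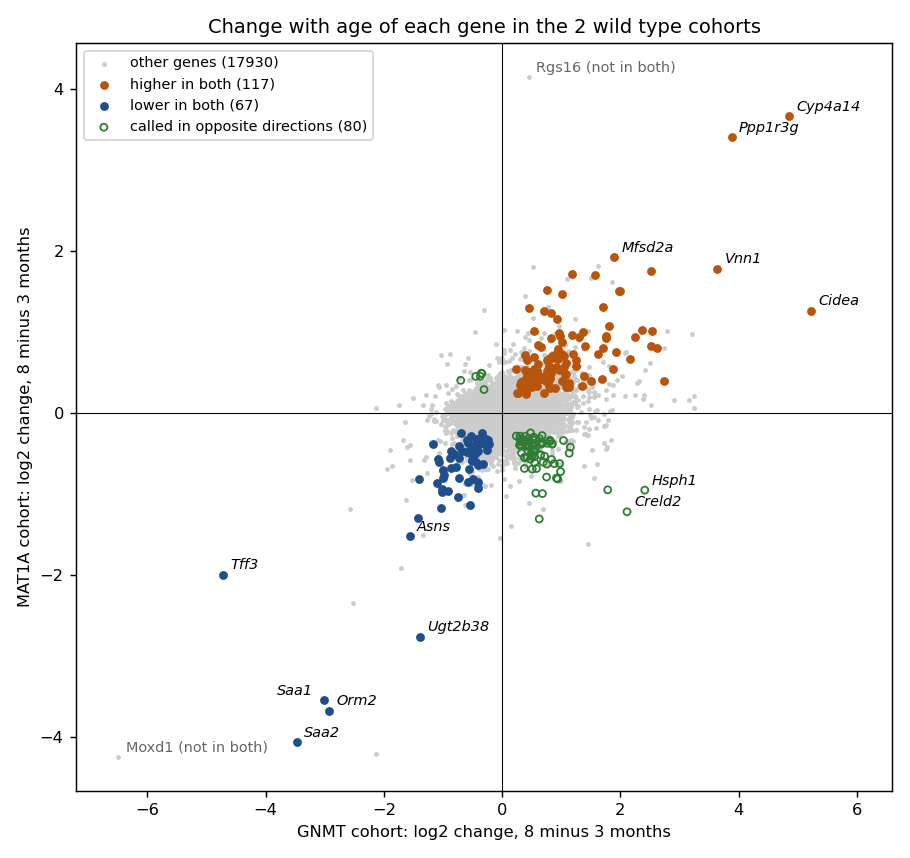
Change of each gene from 3 to 8 months in the GNMT cohort (horizontal axis, log2) against the MAT1A cohort (vertical axis, log2), 5 against 5 arrays each. Orange points are the 117 genes called higher in both, blue points the 67 called lower in both and open green circles the 80 called in opposite directions, most of them higher in the GNMT cohort.

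Genes of fatty acid oxidation were among those upregulated at 8 months in both cohorts. Of 35 measured members of a list of PPAR alpha targets and fat oxidation genes, 27 were called higher in the GNMT cohort and 12 in the MAT1A cohort, 11 of them in both, against 0.643% of all genes, and none was called lower in either. The median change of the list was 0.54 and 0.35, against -0.07 and -0.01 over all genes. As the tissue was measured in bulk, more cells of a type and more RNA per cell cannot be told apart here or below. Ppara, the receptor itself, which was picked after its values were seen, changed by -0.34 ± 0.13 (adjusted p = 0.0547) and 0.23 ± 0.12 (adjusted p = 0.419). Without replicate 1 of the MAT1A cohort at 3 months 17 members were called in both, and without any other array of that cohort 3 to 9.

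Cyp4a14, a cytochrome P450 that hydroxylates the far end of fatty acids and a classic PPAR alpha target of the mouse, showed the largest rise of the list. Its values were 4.66, 4.69, 4.00, 4.35 and 3.88 at 3 months and 7.40, 7.88, 10.29, 9.51 and 10.75 at 8 months in the GNMT cohort, where all arrays of 8 months lay above those of 3 months. The MAT1A arrays gave 7.80, 4.83, 5.32, 5.47 and 5.16 at 3 months and 10.85, 10.49, 10.08, 7.87 and 7.60 at 8 months, where replicate 1 of the young group stood above the others and reached into the range of the old. The changes of 4.85 ± 0.55 and 3.66 ± 0.69 are 28.8-fold and 12.7-fold (adjusted p = 0.000215 and 0.0165). Leaving out 1 array ended the call in the MAT1A cohort for 1 of its 10 arrays.

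Vnn1 encodes vanin 1, a pantetheinase that frees pantothenate, the precursor of coenzyme A. It was measured at 6.32, 6.50, 6.40, 6.35 and 5.16 and then at 9.34, 9.71, 9.96, 9.71 and 10.18 in the GNMT cohort. The MAT1A cohort gave 8.19, 7.75, 7.30, 7.61 and 6.80 at 3 months and 9.57, 8.84, 9.94, 8.94 and 9.24 at 8 months. The ages did not overlap in either cohort. The rise was 12.4-fold and 3.42-fold (adjusted p = 1.32e-05 and 0.00474), and it was larger in the GNMT cohort by a test of the difference (-1.86 ± 0.38 on the log2 scale, adjusted p = 0.00211). Both calls were stable.

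Acyl-CoA thioesterases, which split fatty acyl-CoA into fatty acid and free coenzyme A, rose too. Acot1, the cytosolic enzyme, went from 4.00, 4.89, 5.15, 4.90 and 4.17 to 6.76, 6.93, 7.15, 7.27 and 7.58 in the GNMT cohort. Values of the MAT1A cohort were 7.25, 5.40, 5.36, 6.23 and 5.12 and then 7.20, 7.74, 7.91, 7.93 and 7.32, again with replicate 1 high at 3 months, and the changes were 2.51 ± 0.22 and 1.75 ± 0.34 (adjusted p = 6.79e-05 and 0.0189). The peroxisomal Acot4 rose by 1.20 and 0.72 (adjusted p = 0.0024 and 0.0378), the second of which was lost without 8 of the 10 arrays in turn.

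Of the remaining members called in both, 6 belong to beta-oxidation itself. In the peroxisome these were Ehhadh, the bifunctional enzyme, with changes of 1.05 ± 0.10 and 0.56 ± 0.12, and Acaa1b, a thiolase, with 1.38 ± 0.10 and 0.45 ± 0.11. Ehhadh ranged from 9.62 to 9.82 at 3 months and from 10.52 to 11.11 at 8 months in the GNMT cohort, and from 10.42 to 11.09 and from 11.26 to 11.44 in the MAT1A cohort, so that the ages were apart in both. Auxiliary enzymes for unsaturated fatty acids were Ech1, with 1.01 ± 0.09 and 0.39 ± 0.08, and Eci2, with 0.50 ± 0.15 and 0.48 ± 0.09. Of the mitochondrial spiral, Acadm, the medium-chain acyl-CoA dehydrogenase, changed by 0.32 ± 0.07 and 0.37 ± 0.06, and Hadh, the short-chain hydroxyacyl-CoA dehydrogenase, by 0.41 ± 0.07 and 0.24 ± 0.05. The adjusted p in the MAT1A cohort lay between 0.0118 for Acadm and 0.041 for Acaa1b. Acadm kept both calls without each array in turn, whereas the call in the MAT1A cohort was lost without 6 to 9 of its 10 arrays for Ehhadh, Acaa1b, Ech1 and Hadh. Acaa1b and Ech1 rose more in the GNMT cohort, with differences of -0.93 (adjusted p = 0.000436) and -0.62 (adjusted p = 0.00189). The difference of -0.49 for Ehhadh (adjusted p = 0.0431) was lost without 12 of the 20 arrays in turn. Crat, carnitine acetyltransferase, rose by 0.37 and 0.38 as the mean of its 3 probe sets, but its brightest probe set fell by 0.50 in the GNMT cohort, so that no direction is given for it.

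**Figure D2:**
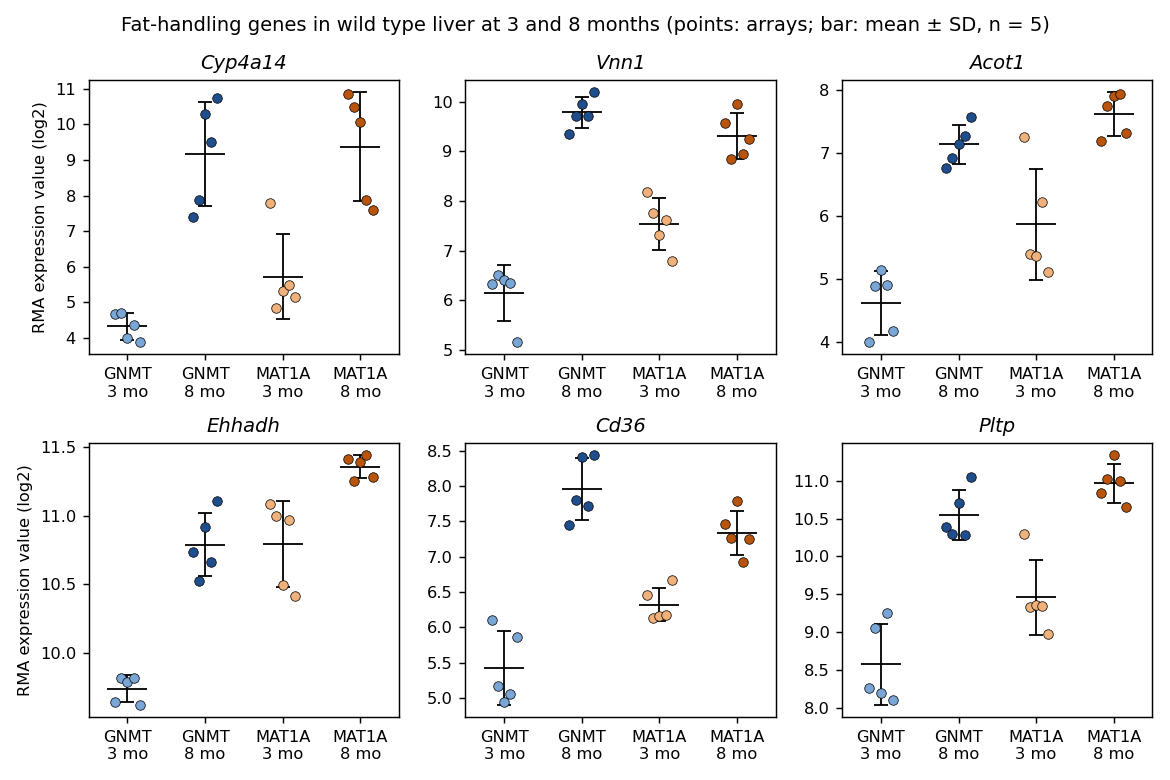
RMA expression values (log2, vertical axes) of 6 fat-handling genes on each array, for the wild types of the GNMT and MAT1A cohorts at 3 and 8 months (horizontal axis, n = 5 each). Points are arrays and bars the mean ± SD. Every mean is higher at 8 months in both cohorts, and only Cyp4a14 and Acot1, in the MAT1A cohort, have arrays of the 2 ages that overlap.

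Some genes of lipid uptake and storage rose in both cohorts. Of 34 members of a list of lipid droplet and lipid uptake genes, 19 were called higher and 4 lower in the GNMT cohort (15.9% and 21.4% of all genes), and 7 higher and 1 lower in the MAT1A cohort (1.09% and 1.74%). The 7 were higher in both and the 1 lower in both (0.643% and 0.368%), and the median change was 0.47 and 0.13. Without any 1 array of the MAT1A cohort, 2 to 7 members were higher in both, 1 with all 39 arrays in 1 fit, and 0 by a test with each gene's own variance.

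Cd36, the fatty acid translocase that takes long-chain fatty acids into the cell, was at 6.11, 5.17, 4.94, 5.06 and 5.86 at 3 months and at 7.44, 7.81, 8.41, 7.71 and 8.43 at 8 months in the GNMT cohort. Among MAT1A wild types it was at 6.46, 6.14, 6.17, 6.18 and 6.67 and then at 7.46, 7.26, 7.79, 6.92 and 7.25. The ages were apart in both cohorts, with rises of 5.79-fold and 2.02-fold (adjusted p = 9.92e-05 and 0.00516), and the rise was the larger in the GNMT cohort (difference -1.52 ± 0.32, adjusted p = 0.00256). Both calls were stable.

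Cidea, which sits on lipid droplets and promotes their fusion, rose from 5.34, 3.44, 3.75, 3.45 and 3.63 to 7.93, 9.74, 8.27, 9.27 and 10.50 in the GNMT cohort. The MAT1A wild types had 3.89, 4.71, 4.36, 4.13 and 4.44 at 3 months, all of them below the median probe set of their array, and 5.10, 4.93, 6.81, 5.13 and 5.87 at 8 months. The ages were apart in both cohorts, but the sizes differed widely, with 5.22 ± 0.49 and 1.26 ± 0.30 (adjusted p = 7.41e-05 and 0.0458, difference -3.96 ± 0.62, adjusted p = 0.00032). The call in the MAT1A cohort was lost without 7 of its 10 arrays and with all 20 or all 39 arrays in 1 fit. Its relative Cidec rose by 3.25 in the GNMT cohort (adjusted p = 0.000209) and changed by 0.21 ± 0.12 in the MAT1A cohort (adjusted p = 0.419). Both genes are also made by fat cells. Of 17 adipocyte markers, these 2 included, 3 were called higher and 6 lower in the GNMT cohort (15.9% and 21.4% of all genes). In the MAT1A cohort 1 was called each way (1.09% and 1.74%). Adipoq, the defining hormone of fat cells, picked after its values were seen, changed by -0.62 ± 0.35 and 0.60 ± 0.43 (adjusted p = 0.176 and 0.562). The summed level of those markers ran from 1344 to 1894 at 3 months and from 1819 to 3296 at 8 months in the GNMT cohort, and from 2194 to 5394 and from 2685 to 5590 in the MAT1A cohort. The part of fat cells in these changes was not tested.

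Fitm1, a protein of the endoplasmic reticulum that helps droplets to form, rose by 2.25 ± 0.21 and 0.93 ± 0.15 (adjusted p = 7.41e-05 and 0.01), with arrays from 8.62 to 9.22 at 3 months and from 9.55 to 10.24 at 8 months in the MAT1A cohort. Among the apolipoproteins, Apoa4 rose by 2.16 ± 0.22 and 0.67 ± 0.15, and Apoa5, an activator of triglyceride clearance from blood, by 0.43 ± 0.08 and 0.34 ± 0.07. Fabp2, a fatty acid binding protein best known from the intestine, rose by 1.61 and 0.72, and the droplet coat protein Plin4 by 1.68 and 0.42. Lpl, the lipoprotein lipase that frees fatty acids from circulating triglyceride, was the member that fell, by 0.98 and 0.77 (adjusted p = 0.00375 and 0.0162), with a range of 7.89 to 8.62 at 3 months and of 7.24 to 7.96 at 8 months in the MAT1A cohort. The adjusted p of the other 4 genes in the MAT1A cohort lay between 0.0189 and 0.0429, and their calls there were lost without 3 (Apoa5) to 8 (Fabp2 and Apoa4) of the 10 arrays.

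Outside the list, 3 further genes of lipid handling were among the largest shared rises, and all 3 were stable. Mfsd2a, a carrier of lysophosphatidylcholine, was measured at 9.87, 8.57, 9.75, 10.02 and 7.98 and 10.78, 10.92, 11.18, 11.16 and 11.62 in the GNMT cohort and at 7.03, 6.70, 5.87, 6.99 and 6.82 and 8.20, 8.40, 9.46, 8.11 and 8.83 in the MAT1A cohort. Its rise was 3.72-fold and 3.78-fold (adjusted p = 0.00244 and 0.00396), and the ages were apart in both cohorts. Pltp, the phospholipid transfer protein of plasma, rose by 1.97 ± 0.23 and 1.50 ± 0.20 (adjusted p = 0.000272 and 0.00381). Lpin2, a phosphatidate phosphatase on the path to triglyceride, rose by 1.36 ± 0.22 and 1.00 ± 0.10 (adjusted p = 0.00118 and 0.00117).

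In a list of 32 genes of fatty acid synthesis and desaturation, 18 were called higher and 1 lower in the GNMT cohort (15.9% and 21.4% of all genes). In the MAT1A cohort 4 were higher and 2 lower (1.09% and 1.74%). Both genes that rose in both extend or desaturate polyunsaturated fatty acids. Elovl5, an elongase, lay at 12.89, 12.24, 12.11, 12.40 and 11.54 at 3 months and at 12.99, 13.03, 13.48, 13.14 and 13.15 at 8 months in the MAT1A cohort and rose by 0.83 ± 0.08 and 0.92 ± 0.19 (adjusted p = 9.66e-05 and 0.026). Fads2, the delta-6 desaturase, rose by 0.81 ± 0.15 and 0.44 ± 0.09 (adjusted p = 0.00224 and 0.0267). Rdh16, which oxidizes retinol, rose by 1.81 ± 0.24 and 1.07 ± 0.18 (adjusted p = 0.000407 and 0.0116) and was stable. The calls of Elovl5 and Fads2 in the MAT1A cohort were lost without 5 and 7 of the 10 arrays.

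Of 29 genes of glucose metabolism, 14 were called higher and 1 lower in the GNMT cohort (15.9% and 21.4% of all genes). In the MAT1A cohort 6 were higher and 1 lower (1.09% and 1.74%), with 3 higher in both (0.643%). Ppp1r3g, which brings protein phosphatase 1 to glycogen and so favours glycogen synthesis after a meal, had the second largest shared rise of all genes by the smaller of its 2 changes. It was at 5.23, 7.34, 8.21, 8.68 and 5.54 at 3 months and at 11.35, 9.79, 10.90, 11.20 and 11.16 at 8 months in the GNMT cohort. The MAT1A cohort had it at 3.21, 3.55, 3.41, 3.88 and 3.59, below the median probe set on all 5 arrays, and then at 5.90, 9.15, 7.57, 7.03 and 5.01. The young livers of the GNMT cohort and the old livers of the MAT1A cohort were each spread over more than 3 log2 units, and yet the ages did not overlap. The changes were 3.88 ± 0.61 and 3.40 ± 0.57 (adjusted p = 0.00106 and 0.0114), and both calls were stable.

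Irs2, the docking protein of the insulin receptor, rose by 1.25 ± 0.29 and 0.58 ± 0.11 (adjusted p = 0.00693 and 0.0196). Gbe1, the glycogen branching enzyme, rose by 0.75 ± 0.13 and 0.52 ± 0.11 (adjusted p = 0.00156 and 0.0264). Igfbp1, outside this list, a binding protein of insulin-like growth factors that falls with insulin, was at 10.73, 11.41, 11.48, 12.80 and 11.10 at 3 months and at 13.18, 13.32, 12.95, 12.80 and 12.64 at 8 months in the MAT1A cohort, where replicate 4 of the young group stood above the lowest old one. It rose by 1.01 ± 0.32 and 1.47 ± 0.30 (adjusted p = 0.0271 and 0.0228), and 3 of 10 and 6 of 10 arrays, left out in turn, ended the calls.

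Some acute phase proteins were downregulated at 8 months in both cohorts. Of 35 measured members, 16 were called lower and 4 higher in the GNMT cohort and 12 lower and 1 higher in the MAT1A cohort, with 10 lower in both, against 0.368% of all genes, and 1, Apoa4, higher in both. The median change was -0.29 and -0.37. The count depends on single arrays, since 10 members were lower in both without replicate 1 of the MAT1A cohort at 3 months but 1 to 7 without any other array of that cohort, and a test with each gene's own variance called 0 in the MAT1A cohort. The 10 were Saa1, Saa2, Saa4, Orm1, Orm2, Lrg1, Hp, Hpx, Itih3 and Cfb.

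Serum amyloid A, carried on high-density lipoprotein during inflammation, fell the most. Saa2 was at 13.78, 11.97, 9.87, 11.44 and 13.80 at 3 months and at 8.94, 8.38, 8.92, 8.18 and 9.07 at 8 months in the GNMT cohort. Its levels in the MAT1A cohort were 8.20, 12.11, 14.00, 10.42 and 14.37 at 3 months and 7.50, 7.47, 8.14, 7.68 and 8.00 at 8 months. Young livers were spread over more than 3 log2 units in each cohort, whereas the old ones lay within 1 unit, and the ages did not overlap. The changes of -3.48 ± 0.62 and -4.06 ± 0.92 mean 11.1-fold and 16.7-fold lower levels (adjusted p = 0.002 and 0.0361), and leaving out 8 of the 10 arrays in turn ended the second call. Saa1 fell by 3.01 and 3.55 (adjusted p = 0.000189 and 0.0197) and Saa4, the constitutive form, by 1.43 and 1.29 (adjusted p = 0.000556 and 0.0331).

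Saa1 and Saa2 are close copies that lie beside each other on chromosome 7, so that probe sets may detect both and their values are not independent. Their promoters are shown because the genes moved together. In the 250 bases before each start, taken from RefSeq on build GRCm38.p6, 94.8% of 251 aligned columns were identical, and the capitals mark the longest run shared exactly, of 65 bases. The stretch of Saa1 is chr7:46742981-46743230 on the minus strand and that of Saa2 is chr7:46751583-46751832 on the plus strand.
Saa1: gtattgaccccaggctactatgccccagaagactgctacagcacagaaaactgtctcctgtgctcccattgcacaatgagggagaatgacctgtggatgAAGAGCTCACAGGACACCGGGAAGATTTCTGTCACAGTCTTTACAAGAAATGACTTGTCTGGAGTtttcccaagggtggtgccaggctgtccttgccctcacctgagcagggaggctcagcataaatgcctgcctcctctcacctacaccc
Saa2: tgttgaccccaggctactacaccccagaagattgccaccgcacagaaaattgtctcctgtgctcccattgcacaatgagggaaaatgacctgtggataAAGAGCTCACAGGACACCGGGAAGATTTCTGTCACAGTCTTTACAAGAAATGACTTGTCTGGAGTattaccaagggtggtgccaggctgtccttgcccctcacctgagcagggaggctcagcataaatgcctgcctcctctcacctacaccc

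Orosomucoid, or alpha-1-acid glycoprotein, is a plasma carrier of drugs and lipids. Orm2 was at 12.87, 8.78, 6.89, 8.56 and 12.82 and 7.05, 7.21, 6.95, 6.85 and 7.21 in the GNMT cohort and at 7.41, 10.11, 12.09, 9.40 and 13.06 and 6.62, 6.47, 6.59, 6.93 and 7.09 in the MAT1A cohort. As with Saa2, replicates 1 and 5 of the GNMT cohort and replicates 3 and 5 of the MAT1A cohort were the highest at 3 months, and the lowest young array reached the range of the old in the GNMT cohort. It fell by 2.93 in the GNMT cohort and dropped by 3.67 in the MAT1A cohort (adjusted p = 0.0363 and 0.031), and each call was lost without 7 of the 10 arrays in turn. Orm1 was less spread within a group, at 13.43 ± 0.35 and 12.85 ± 0.12 in the GNMT cohort and 13.81 ± 0.35 and 12.95 ± 0.17 in the MAT1A cohort (SD, n = 5), and it fell by 0.57 and 0.86 (adjusted p = 0.01 and 0.0118), which was stable.

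The palindrome TTGCGCAA, the best known binding sequence of the C/EBP factors that drive acute phase genes, was searched on both strands of the promoter windows, 250 bases before to 50 after the start, after the values had been seen. Of the 10 genes 7 had a window, and 1 of these, Orm2, held it, against 0.183% of all 32851 windows. The stretch before its start is chr4:63362199-63362448 on the plus strand (GRCm38.p6), shown with the palindrome in capitals.
Orm2: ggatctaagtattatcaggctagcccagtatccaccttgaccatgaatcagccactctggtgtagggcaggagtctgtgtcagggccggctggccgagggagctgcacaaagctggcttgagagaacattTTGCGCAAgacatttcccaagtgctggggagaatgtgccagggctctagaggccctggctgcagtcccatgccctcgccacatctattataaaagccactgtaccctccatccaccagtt

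The other acute phase genes called in both fell by less than the serum amyloid genes and Orm2. Lrg1, a secreted leucine-rich glycoprotein, fell by 0.54 and 1.14, and Cfb, factor B of the alternative complement pathway, by 0.46 and 0.51. Hp, haptoglobin, which binds free haemoglobin, fell by 0.50 and 0.52, Hpx, hemopexin, which binds haem, by 0.27 and 0.33, and Itih3, a heavy chain of the inter-alpha-trypsin inhibitors, by 0.60 and 0.48. Adjusted p in the MAT1A cohort ran from 0.0221 for Lrg1 to 0.0481 for Hp. The SD of the 10 genes between arrays had a median of 0.414 at 3 months and 0.175 at 8 months in the GNMT cohort, and of 0.457 and 0.198 in the MAT1A cohort.

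Lcn2, lipocalin 2, an iron-trapping protein that both inflamed hepatocytes and neutrophils make, followed the same arrays, at 11.88, 8.01, 7.23, 8.80 and 11.79 at 3 months in the GNMT cohort and 5.06, 9.27, 11.88, 7.70 and 12.95 in the MAT1A cohort, and missed the threshold (adjusted p = 0.0584 and 0.0711). It belongs to a list of 14 neutrophil markers, of which 4 were called lower in the GNMT cohort (21.4% of all genes) and 0 in the MAT1A cohort (1.74%). The summed level of the list on the linear scale ran from 966 to 7651 at 3 months and from 1058 to 1556 at 8 months in the GNMT cohort, and from 512 to 9313 and from 568 to 735 in the MAT1A cohort. Without Lcn2 the sums were 816 to 3874 and 722 to 1399, then 479 to 1409 and 530 to 685. The part of neutrophils in these changes was not tested.

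Several complement genes, which were not a list of their own, fell with age as well, and with little spread among the young livers. Those named here were picked as called lower in both cohorts, and complement genes that did not change were not counted. The classical protease C2 was at 9.20, 9.29, 9.23, 9.31 and 9.42 and then at 8.72, 8.57, 8.55, 8.33 and 8.37 in the GNMT cohort. The MAT1A arrays read 9.83, 10.11, 10.20, 10.11 and 10.25 and then 9.47, 9.45, 9.33, 9.46 and 9.49. All old arrays lay below all young ones in both cohorts, and C2 fell by 0.79 and 0.66 on the log2 scale (adjusted p = 0.000153 and 0.00256).

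C6, C8a, C8b and C9 encode proteins that assemble into the membrane attack complex, the pore that complement opens in a target cell. C6 fell by 0.73 and 0.81 (adjusted p = 0.00788 and 0.0158), and C8a, the alpha chain of component 8, by 0.87 and 0.47 (adjusted p = 0.000209 and 0.0118, difference 0.39 ± 0.13, adjusted p = 0.0321, which was lost without 7 of the 20 arrays). C8b, the beta chain, ranged from 11.39 to 11.57 at 3 months and from 10.06 to 11.10 at 8 months in the GNMT cohort and from 11.91 to 12.30 and from 10.97 to 11.47 in the MAT1A cohort, and fell by 1.02 and 0.94 (adjusted p = 0.00146 and 0.00234). C9, which lines the pore, fell by 0.86 and 0.68 (adjusted p = 0.000622 and 0.00516). The ages were apart for all of them in both cohorts. Hc, which encodes component 5 and was picked after its values were seen, fell by 0.73 and 0.41 (adjusted p = 0.000645 and 0.0195), the second of which was lost without 4 of the 10 arrays. C2, C6, C8b and C9 were stable, and C8a kept both calls without each array in turn. The median SD of the 5 genes C2, C6, C8a, C8b and C9 was 0.0915 at 3 months and 0.258 at 8 months in the GNMT cohort, and 0.149 and 0.185 in the MAT1A cohort. F11, clotting factor XI, fell by 1.00 and 0.80 (adjusted p = 0.00117 and 0.0281).

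**Figure D3:**
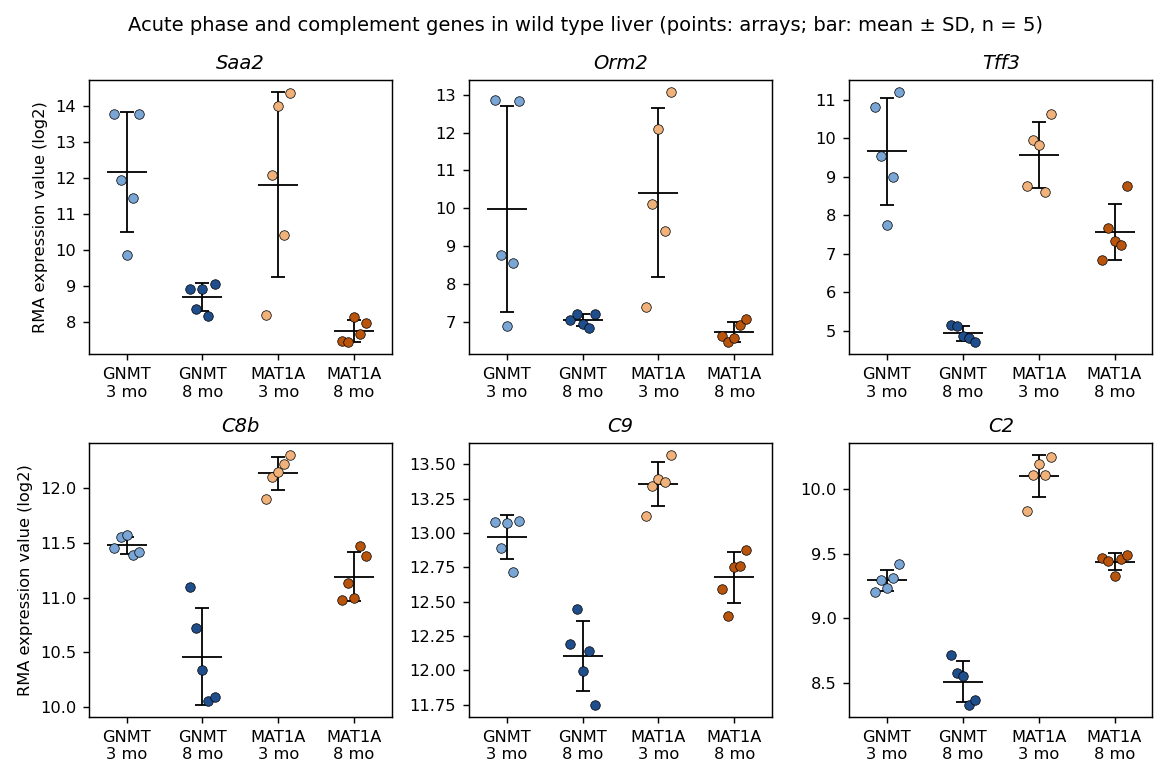
RMA expression values (log2, vertical axes) of 2 acute phase genes, Tff3 and 3 complement genes on each array of the 4 wild type groups (horizontal axis, n = 5 each). Points are arrays and bars the mean ± SD. Saa2 and Orm2 are widely spread at 3 months and low on all arrays at 8 months, while C8b, C9 and C2 lie close together at 3 months and lower at 8 months.

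Genes with a known sex bias in mouse liver were counted next. Of 27 male-biased genes, 16 were called lower and 1 higher in the GNMT cohort (21.4% and 15.9% of all genes) and 7 lower and 0 higher in the MAT1A cohort (1.74% and 1.09%), with 5 lower in both (0.368%). Lower in both were 4 to 8 when 1 of the 20 arrays was left out and 2 by a test with each gene's own variance. Of these 5, C6, C8a, C8b and C9 are the complement genes described above. The median change was -0.38 and -0.33. Of 30 female-biased genes, 11 were called higher and 3 lower in the GNMT cohort and 5 higher and 0 lower in the MAT1A cohort, and the 5 rose in both (0.643% of all genes). Of those, Cyp4a14, Acot4 and Cd36 also belong to the lipid lists. The median change was 0.33 and 0.21, and 2 to 6 members rose in both without any 1 array of the MAT1A cohort.

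Ugt2b38, a glucuronosyltransferase of the male liver, was at 9.79, 10.52, 9.67, 10.42 and 10.10 at 3 months and at 7.33, 6.83, 6.17, 8.11 and 8.25 at 8 months in the MAT1A cohort, a 6.78-fold fall with no overlap (adjusted p = 0.00256). In the GNMT cohort its values of 8.16, 9.70, 8.78, 10.16 and 9.04 and 8.00, 9.13, 7.71, 7.82 and 6.22 overlapped (change -1.39 ± 0.48, adjusted p = 0.0378), and 7 of 10 arrays left out in turn ended that call. Moxd1, a monooxygenase-like protein, had the largest change of the list and was called in the GNMT cohort only. It stood at 10.91, 11.14, 8.63, 10.95 and 11.43 at 3 months and at 5.08, 3.83, 3.58, 4.32 and 3.80 at 8 months there, a change of -6.49 ± 0.47 (adjusted p = 2.62e-05). MAT1A wild types had it at 4.60, 10.84, 11.04, 8.76 and 11.99 and then at 4.34, 4.08, 3.96, 5.89 and 7.76, where replicate 1 of the young group was as low as the old (change -4.24 ± 1.20, adjusted p = 0.0815).

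Nipal1, a magnesium transporter, was at 4.01, 3.61, 4.05, 4.11 and 3.95 at 3 months and at 5.09, 5.82, 5.24, 5.23 and 4.91 at 8 months in the MAT1A cohort and rose by 1.70 ± 0.36 and 1.31 ± 0.15 (adjusted p = 0.00467 and 0.00234). Abcd2, which carries very long-chain fatty acids into peroxisomes, rose by 0.70 ± 0.16 and 1.26 ± 0.26 (adjusted p = 0.00573 and 0.026). Nipal1 was stable, and Abcd2 lost that of the MAT1A cohort without 7 of 10 arrays. Of the young MAT1A arrays, 5 for Nipal1 and 4 for Abcd2 were below the median probe set. Of the young GNMT arrays, 1 for Nipal1 and 4 for Abcd2 were. The ages overlapped in the GNMT cohort for both genes and in the MAT1A cohort for Abcd2.

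Among enzymes of drug and hormone metabolism, Cyp2b10, the typical target of the receptor CAR, was at 5.02, 4.86, 4.78, 4.82 and 4.89 at 3 months and at 6.96, 6.15, 8.19, 5.36 and 6.24 at 8 months in the MAT1A cohort. It rose by 1.58 ± 0.49 and 1.70 ± 0.38 (adjusted p = 0.025 and 0.0347), and the calls were lost without 6 and 7 of the 10 arrays. The full list of 50 xenobiotic genes had 15 higher and 6 lower in the GNMT cohort (15.9% and 21.4% of all genes). It had 6 higher and 2 lower in the MAT1A cohort (1.09% and 1.74%), and 4 higher and 2 lower in both (0.643% and 0.368%). Serpina7, which carries thyroid hormone in plasma, rose 2.26-fold and 3.28-fold (adjusted p = 0.0153 and 0.00256), with a range of 8.26 to 9.18 at 3 months and of 9.99 to 10.83 at 8 months in the MAT1A cohort, and was stable. Slc22a29, of the organic anion transporter family, rose by 2.00 ± 0.38 and 1.51 ± 0.30 (adjusted p = 0.00276 and 0.0224) from levels below the median probe set on all 10 young arrays.

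Tff3 and Cdh1 were among the strongest shared falls. Tff3, a trefoil peptide of mucous surfaces, was at 10.82, 9.54, 7.75, 8.99 and 11.19 and 5.16, 5.12, 4.86, 4.82 and 4.71 in the GNMT cohort and at 8.75, 9.97, 9.82, 8.60 and 10.63 and 6.83, 7.67, 7.32, 7.23 and 8.75 in the MAT1A cohort. The ages overlapped in the MAT1A cohort only. The level was 26.5-fold and 3.99-fold lower (adjusted p = 0.000177 and 0.0226), more so in the GNMT cohort (difference 2.73 ± 0.72, adjusted p = 0.0106), and 5 of 10 arrays left out in turn ended the call in the MAT1A cohort. Cdh1, E-cadherin, which joins epithelial cells and is richest around the portal tract, fell by 1.41 and 0.81 (adjusted p = 0.00286 and 0.00223), with a range of 9.74 to 9.91 at 3 months and of 8.76 to 9.22 at 8 months in the MAT1A cohort. Of 21 cholangiocyte markers 3 were called higher and 4 lower in the GNMT cohort, where 15.9% and 21.4% of all genes were, and 0 in the MAT1A cohort, where 2.83% were, and their summed level ran from 1567 to 1895 at 3 months and from 1645 to 2051 at 8 months in the latter.

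Asns, asparagine synthetase, a target of the amino acid response factor ATF4, was at 8.81, 8.10, 7.38, 8.19 and 8.47 and 6.83, 7.22, 7.43, 4.32 and 7.36 in the GNMT cohort and at 5.67, 6.19, 6.78, 5.25 and 6.68 and 4.00, 4.47, 4.48, 4.97 and 5.03 in the MAT1A cohort. It fell by 1.56 and 1.52 (adjusted p = 0.0338 and 0.0158), without overlap in the MAT1A cohort, and the call in the GNMT cohort was lost without 5 of 10 arrays. Slc46a3, a lysosomal transporter, fell by 1.03 and 1.17 (adjusted p = 0.00111 and 0.00256) and was stable. Cdkn2c, the cell cycle inhibitor p18, fell by 1.09 and 0.57 (adjusted p = 6.82e-05 and 0.0415). Serpinb1a, an inhibitor of neutrophil proteases, rose by 0.76 and 1.51 (adjusted p = 0.000737 and 0.00396). Its young levels, 3.21 to 3.51 in the GNMT and 4.16 to 4.65 in the MAT1A cohort, were all below the median probe set. The old GNMT arrays lay at 3.84 to 4.46, around their median probe set at 4.15 to 4.33. Got1, the cytosolic aspartate aminotransferase, rose by 0.41 and 0.44 (adjusted p = 0.0366 and 0.048), and each call was lost without 8 of the 10 arrays in turn.

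Of the immune lists few members were called in both cohorts, as were few of all genes (0.643% higher and 0.368% lower). Jchain, the joining chain of IgA and IgM made by plasma cells, was at 4.23, 3.40, 3.58, 3.40 and 4.00 and 4.67, 4.79, 4.23, 4.61 and 4.94 in the GNMT cohort and at 4.95, 4.89, 5.12, 4.79 and 5.11 and 6.65, 5.71, 6.26, 6.17 and 5.87 in the MAT1A cohort. It rose 1.9-fold and 2.23-fold without overlap (adjusted p = 0.00256 and 0.00299). The young levels were near or under the median probe set, which lay at 4.15 to 4.33 on GNMT arrays and at 4.91 to 4.99 on MAT1A arrays. Ighm, the heavy chain of IgM, rose by 0.30 ± 0.08 and 0.35 ± 0.07 (adjusted p = 0.0173 and 0.0237). These were the members of 20 B and plasma cell markers that rose in both (0.643% of all genes). Of the 20, 2 were higher and 5 lower in the GNMT cohort (15.9% and 21.4% of all genes). In the MAT1A cohort 3 were higher and 0 lower (1.09% and 1.74%). Cd5l, a secreted protein of macrophages, fell by 0.57 and 0.69 (adjusted p = 0.00848 and 0.0405). It alone of 33 macrophage and Kupffer cell markers was called in both, where 0.368% of all genes were called lower. Of the 33, 0 were higher and 4 lower in the GNMT cohort (15.9% and 21.4% of all genes). In the MAT1A cohort 1 was called each way (1.09% and 1.74%). The summed level of those 33 ran from 6656 to 9625 and then from 5421 to 7716 in the GNMT cohort, and from 11460 to 16970 and then from 9408 to 12870 in the MAT1A cohort. Irgm1, an interferon-induced GTPase, fell by 0.49 and 0.82 (adjusted p = 0.0131 and 0.0114). It was the 1 of 48 interferon response genes called in both, where 0.368% of all genes were called lower. Of the 48, 3 were higher and 15 lower in the GNMT cohort (15.9% and 21.4% of all genes). In the MAT1A cohort 0 were higher and 3 lower (1.09% and 1.74%).

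Immediate early genes, which respond to growth factors and stress within minutes, were counted in the same way. Of 26, 16 were called higher in the GNMT cohort (15.9% of all genes) and 6 in the MAT1A cohort (1.09%), 3 in both (0.643%), and none lower, with medians of 1.09 and 0.39. The difference between cohorts was called for 7, where 23.9% of all genes were called. Gadd45b, a stress-induced growth arrest protein, was at 5.54, 5.78, 5.79, 5.78 and 5.81 and then at 6.35, 6.84, 6.69, 6.73 and 6.68 in the MAT1A cohort. It rose by 1.76 ± 0.33 and 0.92 ± 0.09 (adjusted p = 0.00234 and 0.00117) and kept both calls without each array in turn. The transcription factors Klf4 and Fosl2 rose by 1.07 and 0.61 (adjusted p = 0.00239 and 0.021) and by 1.50 and 0.39 (adjusted p = 0.000289 and 0.0479). Without any 1 array of the 20, 1 to 5 members were called in both, and none was called in the MAT1A cohort when all 20 arrays shared 1 fit.

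The circadian clock drives daily rhythms of many liver genes. Of 24 clock genes, 10 were called higher and 2 lower in the GNMT cohort (15.9% and 21.4% of all genes). In the MAT1A cohort 1 was called each way (1.09% and 1.74%). Noct, or nocturnin, a phosphatase with a strong daily rhythm, was the member called higher in both, where 0.643% of all genes were. It was at 8.91, 9.40, 9.68, 9.35 and 8.53 and 9.56, 10.30, 10.21, 10.03 and 9.91 in the GNMT cohort and at 6.88, 7.20, 7.44, 7.51 and 7.74 and 7.63, 9.17, 9.03, 8.04 and 9.05 in the MAT1A cohort, with ages that overlapped in each. The rise was 0.83 ± 0.20 and 1.23 ± 0.28 (adjusted p = 0.00881 and 0.0367). Per1, a repressor in the core loop, rose by 0.70 in the GNMT cohort (adjusted p = 0.0151) and changed by 0.71 ± 0.18 in the MAT1A cohort (adjusted p = 0.0522). The promoter window of Noct held none of the E-box CACGTG, the D-box TTATGTAA or the core AGGTCA of the ROR element on either strand, which 7.15%, 0.938% and 16.3% of all 32851 windows hold. Of the 11 fat oxidation genes called in both, 8 had a window, and 1 of these, Acot4, held 2 copies of AGGTCA 1 base apart with up to 2 mismatches, the binding sequence of PPAR alpha, against 3.86% of all windows, in a search chosen after the values were seen.

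**Figure D4:**
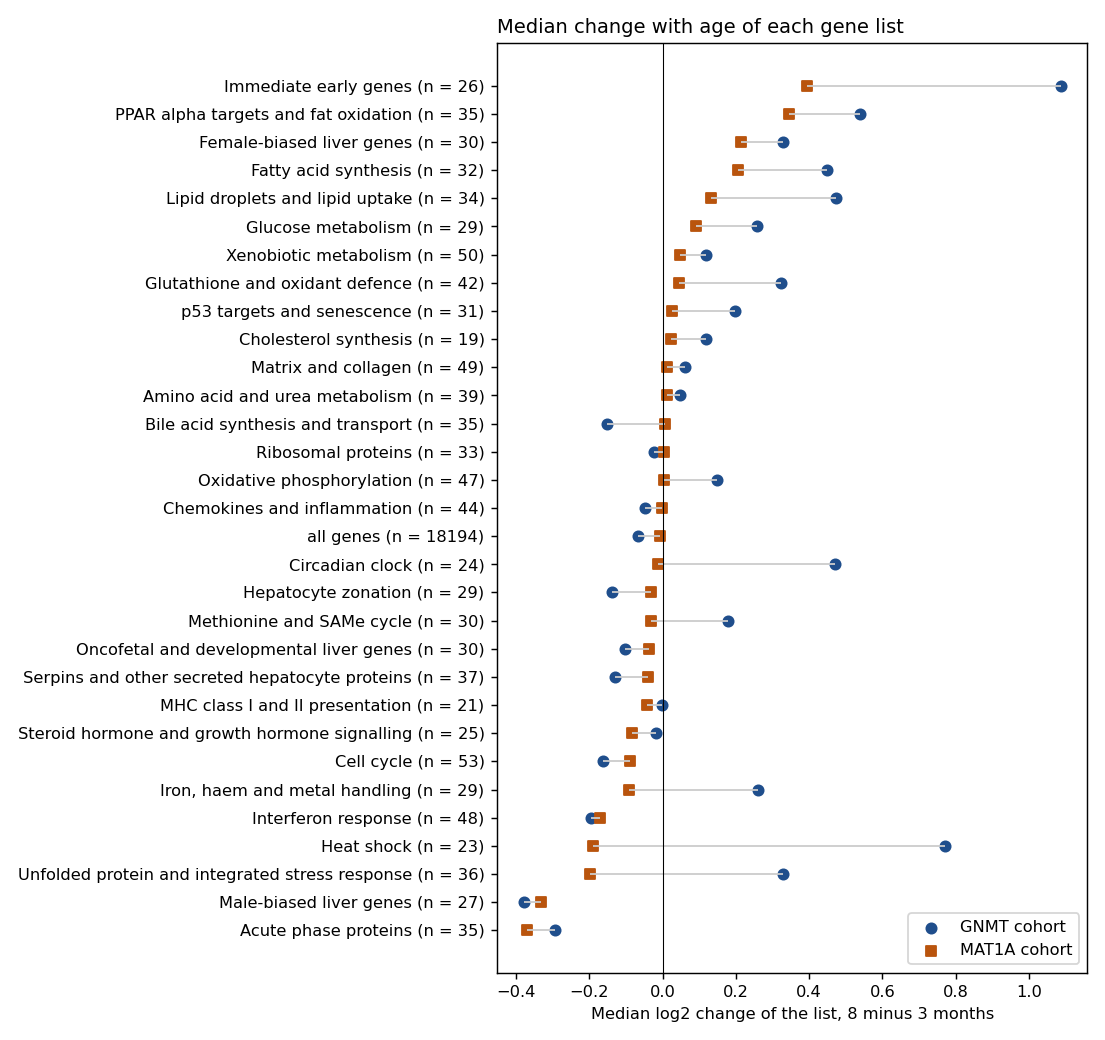
Median log2 change from 3 to 8 months (horizontal axis) of the gene lists and of all genes, with the number of genes measured, in the GNMT cohort (blue circles) and the MAT1A cohort (orange squares). The lists of cell type markers and of sex chromosome genes are not shown. Fat oxidation and immediate early genes lie to the right and acute phase and male-biased genes to the left in both cohorts, while heat shock and unfolded protein response genes lie on opposite sides.

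The change with age differed between the cohorts for 4342 genes (23.9%), 2249 higher and 2093 lower in the MAT1A cohort. When arrays were centred on their medians these became 940 and 3442. Of the 184 genes called the same way in both, 34 differed in size. The test includes the change in the GNMT cohort, where poly-A spikes differed by 0.893 and hybridization spikes by -0.377 between the ages. The part of such technical differences in the values below was not tested.

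Genes of chaperones rose in the GNMT cohort, and some fell in the MAT1A cohort. Of 23 heat shock genes, 17 were called higher and 0 lower in the GNMT cohort (15.9% and 21.4% of all genes). In the MAT1A cohort 0 were higher and 3 lower (1.09% and 1.74%), and the difference was called for 16 (23.9%). Hsph1, a nucleotide exchange factor of HSP70, was at 6.68, 6.84, 6.39, 6.43 and 6.85 and 9.58, 9.69, 9.35, 8.19 and 8.44 in the GNMT cohort and at 8.40, 9.49, 9.07, 9.13 and 9.94 and 8.09, 8.23, 8.31, 8.02 and 8.62 in the MAT1A cohort. Its changes of 2.41 ± 0.27 and -0.95 ± 0.22 differed by -3.36 ± 0.38 (adjusted p = 0.000191, 0.0411 and 2.14e-05), and the call in the MAT1A cohort was lost without 8 of its 10 arrays. Hspa8, the constitutive HSP70, changed by 0.38 ± 0.13 and -0.69 ± 0.15 (adjusted p = 0.0439 and 0.0287, and 0.00196 for the difference). Each call of Hspa8 was lost without 8 of 10 and 7 of 10 arrays. Of the list, 6 members were called lower in the MAT1A cohort without replicate 1 at 3 months, 3 without replicate 5 at 8 months, and 0 or 1 without any other array.

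Of 36 genes that answer unfolded proteins or run the integrated stress response, 20 were called higher and 3 lower in the GNMT cohort (15.9% and 21.4% of all genes). In the MAT1A cohort 1 was higher and 10 lower (1.09% and 1.74%). Higher in the GNMT and lower in the MAT1A cohort were 5. Without any 1 array of the MAT1A cohort, 5 to 15 were lower there. Creld2, a disulfide isomerase of the endoplasmic reticulum, ranged from 8.26 to 8.85 at 3 months and from 9.63 to 11.56 at 8 months in the GNMT cohort, and from 10.49 to 11.72 and from 9.44 to 10.55 in the MAT1A cohort (changes 2.11 ± 0.32 and -1.22 ± 0.24, difference -3.33 ± 0.43, adjusted p = 7.13e-05), with the call in the MAT1A cohort lost without 3 of its 10 arrays. Syvn1, the ubiquitin ligase that removes misfolded proteins, changed by 1.78 ± 0.21 and -0.95 ± 0.17 (difference -2.73, adjusted p = 1.27e-05). Manf, a secreted stress protein, changed by 0.99 ± 0.14 and -0.72 ± 0.12 (difference -1.71, adjusted p = 1.92e-05), and Dnajb11, a cochaperone of BiP, by 0.65 ± 0.16 and -0.52 ± 0.08 (difference -1.17, adjusted p = 0.000324). The ages were apart in both cohorts for Syvn1, Manf and Dnajb11, in opposite directions.

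**Figure D5:**
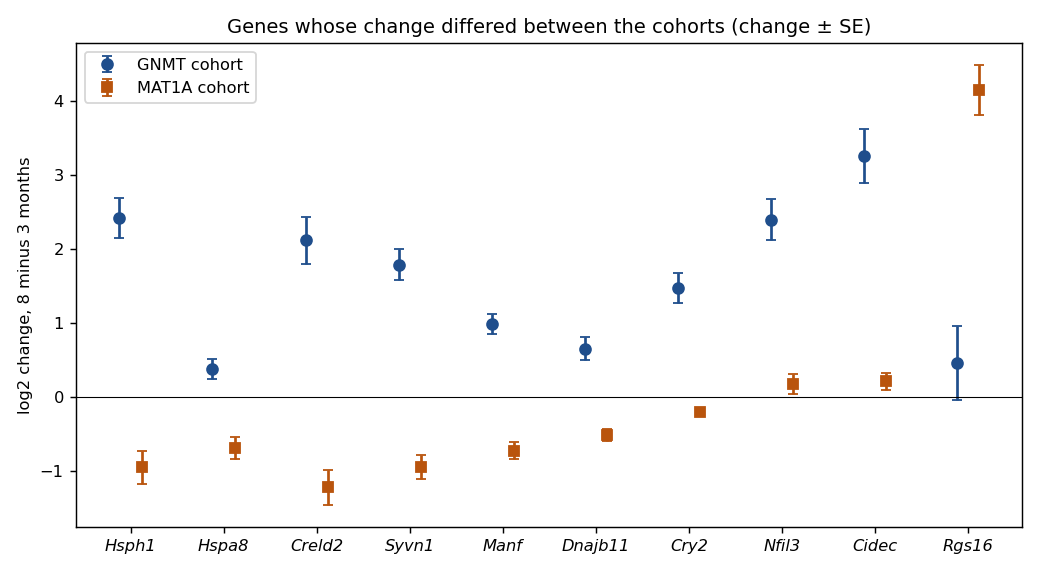
Log2 change from 3 to 8 months (vertical axis, ± SE, 5 against 5 arrays) of 10 genes whose change differed between the cohorts (horizontal axis), for the GNMT cohort (blue circles) and the MAT1A cohort (orange squares). The 6 chaperone and stress genes on the left lie above 0 in the GNMT cohort and below 0 in the MAT1A cohort.

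Rgs16, a regulator of G protein signalling, had the largest rise of all genes in the MAT1A cohort, from 6.80, 5.21, 5.25, 5.53 and 4.91 to 9.85, 10.22, 9.57, 10.02 and 8.74, a 17.6-fold change (adjusted p = 0.000378). In the GNMT cohort its values of 6.63, 7.76, 9.04, 9.64 and 7.33 and 8.84, 8.47, 9.34, 8.31 and 7.73 overlapped (change 0.46 ± 0.50, adjusted p = 0.486), and the difference was 3.68 ± 0.66 (adjusted p = 0.000932). Clock genes were among those that rose more in the GNMT cohort. Cry2, a core repressor, changed by 1.47 ± 0.20 and -0.20 ± 0.06 (difference -1.67, adjusted p = 6.67e-05), and Nfil3, which binds the D-box, by 2.39 ± 0.28 and 0.18 ± 0.14 (difference -2.21, adjusted p = 0.00024).

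Some lists not described above had calls in the MAT1A cohort. Among them, 6 of 42 genes of glutathione and oxidant defence were higher and 0 lower (1.09% and 1.74% of all genes). For the lists that follow, the counts in the MAT1A cohort, where 2.83% of all genes were called, were 0. Of 47 genes of oxidative phosphorylation, which make the respiratory chain, 18 were called higher and 1 lower in the GNMT cohort, against 15.9% and 21.4% of all genes. Of 30 markers of sinusoidal endothelium 13 were called higher and 2 lower there, of 28 markers of T and NK cells 10 lower, and of 13 markers of red blood cells 6 lower. The difference between the cohorts was called for 12 genes of oxidative phosphorylation, 6 endothelial, 6 T and NK cell and 5 red blood cell markers, where 23.9% of all genes were called.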

How the data were processed

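Total liver RNA was hybridized by the authors to Affymetrix Mouse Genome 430 2.0 arrays, and the deposited table holds RMA values on a log2 scale, already background-corrected and normalized, with GCOS and RMA named in the submitters' processing notes without versions. Of its 45101 probe sets, 34958 had 1 gene symbol in the platform annotation and were averaged to 18194 genes. Arrays were grouped by their labels. Ages were compared within each cohort with limma 3.58.1 (lmFit and eBayes, R 4.3.3), two-sided, with Benjamini-Hochberg adjustment over all genes and no filter, and the difference between cohorts was tested as an interaction over 20 arrays. Control probe sets were compared by an exact permutation test. The number of arrays limits the precision. Genes were named if among the largest shared changes, if members of a list called in both cohorts, if of lowest p in a list or if of largest difference, and Ppara, Hc and Adipoq were added after their values were seen. The members and lists were chosen with earlier results of these data known. The fits were tested on simulated data. Promoters are from RefSeq (GRCm38.p6). The knockout arrays entered 1 alternative only.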

Additional observations from a re-analysis of the deposited data

Results flagged for a closer look

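Single arrays stood apart in 20 of 336 groups of 5 values tested, by a gap to the nearest other array of more than 0.71 of the range of the group. Chance alone flags about 1 in 20 groups. Replicate 1 of the MAT1A cohort at 3 months was such an array for 6 genes. In the GNMT cohort at 3 months these were Vnn1 at 5.16 in replicate 5 (others 6.32 to 6.50), Cidea at 5.34 in replicate 1 (others 3.44 to 3.75), Apoa4 at 12.06 in replicate 3 (others 10.96 to 11.09), C6 at 11.36 in replicate 1 (others 11.02 to 11.11), Moxd1 at 8.63 in replicate 3 (others 10.91 to 11.43), Creld2 at 8.85 in replicate 1 (others 8.26 to 8.39) and Adipoq at 5.15 in replicate 1 (others 2.84 to 3.29). In the GNMT cohort at 8 months these were Acaa1b at 13.94 in replicate 5 (others 13.68 to 13.75), Ppp1r3g at 9.79 in replicate 2 (others 10.90 to 11.35), Cyp2b10 at 5.62 in replicate 2 (others 7.25 to 7.38) and Asns at 4.32 in replicate 4 (others 6.83 to 7.43). In the MAT1A cohort at 3 months these were Cyp4a14 at 7.80 in replicate 1 (others 4.83 to 5.47), Acadm at 11.77 in replicate 1 (others 11.55 to 11.58), Pltp at 10.30 in replicate 1 (others 8.98 to 9.35), Mfsd2a at 5.87 in replicate 3 (others 6.70 to 7.03), Gadd45b at 5.54 in replicate 1 (others 5.78 to 5.81), Fosl2 at 6.18 in replicate 1 (others 6.50 to 6.63) and Hspa8 at 10.54 in replicate 1 (others 11.28 to 11.49). In the MAT1A cohort at 8 months these were C2 at 9.33 in replicate 3 (others 9.45 to 9.49) and Gnmt at 13.68 in replicate 1 (others 13.81 to 13.85).

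The change with age differed between the cohorts, by the interaction in limma, for 24 of 84 genes examined. As the log2 change in the MAT1A minus that in the GNMT cohort, it was lower for Vnn1 (-1.86), Ehhadh (-0.49), Acaa1b (-0.93), Ech1 (-0.62), Cd36 (-1.52), Cidea (-3.96), Fitm1 (-1.31), Apoa4 (-1.50), Cry2 (-1.67), Nfil3 (-2.21), Fosl2 (-1.10), Hsph1 (-3.36), Hspa8 (-1.06), Creld2 (-3.33), Manf (-1.71), Syvn1 (-2.73), Dnajb11 (-1.17) and Cidec (-3.04). It was higher for C8a (0.39), Tff3 (2.73), Serpinb1a (0.76), Cdkn2c (0.52), Rgs16 (3.68) and Ppara (0.57). Control RNAs differed between the ages of the GNMT cohort, and their part in these differences was not tested.

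Of 10092 probe sets with no gene symbol or with several, which no comparison above used, 41 were called higher and 5 lower at 8 months in both cohorts.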

How the results depend on the processing

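The counts depended on the scale and on single arrays. In the GNMT cohort 3897 genes were lower, but 1126 among genes above the median level, 2424 after quantile normalization and 1719 with each array centred on its median, and the share of calls that were higher went from 42.6% to 68.8%, 48% and 71.3%. In the MAT1A cohort 65 were higher and 132 lower with all 39 arrays in 1 fit, 127 higher with centred arrays, and 32 higher and 84 lower by the per-gene t-test. Called in both were 38 higher and 32 lower with all 39 arrays and 17 and 18 by the t-test. The difference between cohorts was called higher for 701, 1477 and 940 genes (genes above the median level, quantile normalization, centred arrays) and lower for 3442 with centred arrays, and its share higher went from 51.8% to 21.5%. Without 1 array at a time, the MAT1A cohort gave 66 to 430 higher and 128 to 498 lower, and both cohorts together 42 to 242 higher and 33 to 107 lower. The GNMT cohort then gave 2258 to 3249 higher and 2894 to 4193 lower. The hybridization spikes of the MAT1A cohort differed by -0.1616 with centred arrays and by -0.1802 to -0.1117 without 1 array at a time. Crat changed by -0.50 in the GNMT cohort with its brightest probe set, and Gnmt by 0.0895 there with centred arrays. The causes were not tested. List counts under each setting were added after seeing the data.

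Replicate numbers were not known to pair arrays: deviations of same-numbered arrays correlated at -0.0694 to 0.2364. With the replicate number as a block, 112 genes were higher and 69 lower in both cohorts, 2688 and 3436 in the GNMT cohort, and 191 and 308 in the MAT1A cohort.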
